A study of Danio rerio with 13 samples.

Results

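Most of the genes described here belong to families of the machinery by which secretory vesicles dock, are primed and fuse with the plasma membrane. Members were all genes whose zebrafish symbol begins with syt, stx, vamp or snap and a number, or with stxbp, sytl, cplx, rims, cadps, unc13, rab3 and a letter, rab27 or doc2. This rule, which used names and no measured value, took 117 of the 31901 genes in the count files. It also took in 16 genes of fusion proteins (SNAREs) of internal membranes and 2 clathrin assembly genes (snap91), which the member counts include. For 25 members the symbol stayed in capitals without the zebrafish copy letter, so names such as SYT6 do not say which zebrafish copy is meant.

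Peptide hormones are stored in dense-core granules. Fusion is driven by SNARE proteins: a vesicle protein of the Vamp family pairs with a syntaxin and a Snap25-type protein of the plasma membrane, while Munc18-type (Stxbp) proteins and complexins govern the assembly of the complex. Synaptotagmins couple fusion to calcium, Munc13, Cadps and Rim proteins tether and prime vesicles, and Rab3 and Rab27 with their synaptotagmin-like effectors bring granules to the membrane.

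Endocrine cells were sorted by GFP from zebrafish of strain AB carrying Tg(pax6b:GFP)ulg515, which every group shares and which marks cells by the promoter of the gene that is mutated. Pancreatic endocrine cells (PECs) came from the dorsal bud at 27 hpf and enteroendocrine cells (EECs) from dissected gut at 4 dpf, each from wild-type (WT) fish and from fish homozygous for the pax6b null allele sa0086 (Pax6b-/-), the mutants being picked by an absent or reduced lens. There were 3 WT and 3 Pax6b-/- PEC libraries and 4 WT and 3 Pax6b-/- EEC libraries, from cells pooled over about 200 animals. About 3000 cells went into each WT EEC library, and for the PEC libraries a number is not given in the sources used here. Tissue, age and dissociation enzymes changed together and cannot be told apart, and in bulk libraries fewer cells of a type cannot be told apart from less RNA per cell.

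The libraries held 22423938 to 61895597 counts (median 33343637). Levels are normalized CPM, which are counts relative to the library's total (CPM) after a between-library scaling factor, and 3 counts corresponded to 0.0427 to 0.136 normalized CPM. Levels are compared within a gene only, as no gene lengths were used. The mutated gene was still transcribed, at 2793 to 6571 normalized CPM in Pax6b-/- PECs and 1042 to 1418 in Pax6b-/- EECs, so its level does not check the genotype labels. The authors report that they checked the genotype by sequence, finding the null allele in all pax6b reads of the mutant libraries. The 7 endocrine markers, such as neurod1, isl1 and scg3, summed to 8688 to 11420 normalized CPM in PECs and 6158 to 7205 in EECs. In mutants these markers did not move together (adjusted p under 0.1, edgeR test described below). Higher were neurod1 in both tissues, insm1b in PECs and insm1a in EECs. Lower were pcsk2 in both tissues and scg3 in PECs, while isl1 and pcsk1 passed in neither. Between WT tissues isl1 was at 1225 to 1778 normalized CPM in PECs and 85.7 to 143 in EECs, while insm1b went the other way. WT PEC replicate 3 stood apart from the other WT PEC libraries: pcsk2 was at 629 normalized CPM there against 60.8 and 117, and ghrl at 242 against 1197 and 1143. WT EEC replicate 4 stood apart as well, with pcsk2 at 12.6 against 205, 240 and 228. It is included in the WT EEC levels given below.

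Of the 117 members, 74 had a group mean of at least 1 normalized CPM in all 4 groups, 44 of at least 10, and 24 were under 1 in every group. The members under 1 included stx1a, cplx1, doc2a, syt1b, syt5a and vamp1b. The tests reached 104 members, and 13 passed the filter on low counts in no comparison. Of the 104, 58 differed in at least 1 of the 4 comparisons between groups (adjusted p under 0.1, edgeR quasi-likelihood test, Benjamini-Hochberg over all genes tested) and 46 in none. Of all 20609 genes tested in at least 1 of the 4, 48.9% did.

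In Pax6b-/- PECs the synaptotagmins that passed the test with all PEC libraries fell, and the members that rose included Rab3, SNARE and Rim genes. Without WT replicate 3, which stood apart, the synaptotagmin genes SYT11 and syt15 passed as higher and syt9a did not pass. Among 98 members tested, 8 were higher and 7 lower than in WT PECs, which is 8.16% and 7.14% of them. Over all 18698 genes tested the shares were 5.43% higher and 5.74% lower (11.2% in either direction). The median log2 fold change was 0.05 for the members and 0.02 for all genes.

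Of the calcium-binding synaptotagmins 4 of 13 tested fell, of the other synaptotagmins 2 of 9 fell, and the rest did not pass. The synaptotagmin 6 gene syt6a showed the largest fall among those that passed. Synaptotagmin 6 is a calcium-binding form known from intracellular membranes and from sperm exocytosis in mammals. The syt6a transcript was at 1.73, 2.69 and 11.2 normalized CPM in WT and at 0.392, 0 and 0.41 in Pax6b-/- PECs. The groups did not overlap, with 1 mutant library at 0 counts, and the log2 fold change was -4.21 ± 0.93 (SE, n = 3 and 3, adjusted p = 0.0137). Synaptotagmin 5, found on dense-core vesicles in mammals, followed. For syt5b the WT libraries held 5.74, 5.61 and 16.2 and the mutant libraries 1.1, 1.08 and 0.442 normalized CPM, a log2 fold change of -3.36 ± 0.57 (adjusted p = 0.00255). In both genes WT replicate 3 was the highest library. A further synaptotagmin 6 entry, SYT6, was at 13.9 to 18.4 normalized CPM in WT and 8.79 to 10.3 in mutant PECs. Its log2 fold change of -0.64 ± 0.31 did not pass (adjusted p = 0.271).

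Synaptotagmin 13 lacks the residues that bind calcium and in mice takes part in the exit of endocrine precursors from the pancreatic epithelium. Its gene syt13 was at 3.72, 2.45 and 2.53 normalized CPM in WT and 0.416, 0.287 and 0.694 in Pax6b-/- PECs, and the log2 fold change was -2.61 ± 0.56 (adjusted p = 0.0117). In the RefSeq annotation syt13 and syt4 lie on the chromosome of pax6b, so that alleles linked to the mutation travel with it, and the part of linkage in this difference was not tested. For syt9a, whose mammalian counterpart is a calcium sensor of dense-core granules, WT PECs were at 2.98, 2.85 and 5.99 and mutants at 0.784, 1.40 and 1.36 normalized CPM (log2 fold change -1.72 ± 0.51, adjusted p = 0.0576). The calcium-binding syt3 fell from 6.73, 9.64 and 17.5 to 4.73, 3.63 and 2.78 (-1.58 ± 0.43, adjusted p = 0.0413), and syt14a, which does not bind calcium, from 2.95, 3.60 and 5.57 to 0.906, 1.22 and 1.74 (-1.63 ± 0.49, adjusted p = 0.0607). None of these groups overlapped. The gene of the fast calcium sensor synaptotagmin 1, syt1a, was at 956, 870 and 680 in WT and at 771, 927 and 862 in mutants, and these ranges overlapped (log2 fold change 0.05 ± 0.26, adjusted p = 0.941).

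The complexin 2 genes moved in opposite directions in mutant PECs. Complexins bind the assembled SNARE complex and both hold and promote fusion. In WT PECs cplx2 was at 354, 241 and 165 normalized CPM and in mutants at 82.5, 89.4 and 79.2, a log2 fold change of -1.58 ± 0.30 (adjusted p = 0.00569). Its paralog cplx2a went from 194, 204 and 220 to 393, 451 and 311 (0.92 ± 0.25, adjusted p = 0.0434). Both genes separated the groups in every library. The ratio of cplx2a to cplx2 counts within a library was 0.548, 0.849 and 1.34 in WT PECs and 4.77, 5.04 and 3.92 in mutants. This pair was set side by side after its values were seen, so no test of the ratio is given.

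Among the SNARE genes, vamp2 passed the test as higher in Pax6b-/- PECs. It encodes a vesicle SNARE of regulated secretion. The gene was at 131, 171 and 111 normalized CPM in WT and 306, 276 and 249 in mutants (log2 fold change 1.03 ± 0.26, adjusted p = 0.0309). The groups did not overlap. The partner snap25a, by contrast, was at 136, 132 and 184 against 145, 217 and 183, overlapping ranges with a log2 fold change of 0.29 ± 0.26 (adjusted p = 0.59), and stxbp1a, the Munc18 gene, gave 0.30 ± 0.26 (adjusted p = 0.565).

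Of the 8 Rab3 and Rab27 genes, rab3b and rab3c rose. Rab3 proteins are small GTPases that sit on secretory vesicles. WT PECs had 9.23, 7.98 and 9.88 normalized CPM of rab3b and mutants 17.5, 21.8 and 18.7 (log2 fold change 1.12 ± 0.30, adjusted p = 0.0387). For rab3c the values were 51.2, 89.2 and 57.7 against 138, 119 and 134 (1.00 ± 0.28, adjusted p = 0.0452). Tomosyn-2, encoded by stxbp5l, restrains SNARE assembly in other species. Its transcript was at 5.06, 5.49 and 4.14 in WT and 17.2, 12.8 and 13.3 in mutant PECs, the largest rise among the members that passed (1.58 ± 0.34, adjusted p = 0.0119). The short Rim gene rims4 went from 4.15, 3.75 and 2.79 to 9.77, 10.9 and 7.23 (1.41 ± 0.38, adjusted p = 0.0401). Each of these genes was higher in all 3 mutant libraries than in any WT library. A gene listed as sytl3, which another table of names assigns to ezrin, was at 159, 153 and 134 against 246, 273 and 212 (0.73 ± 0.25, adjusted p = 0.0971).

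**Figure D1:**
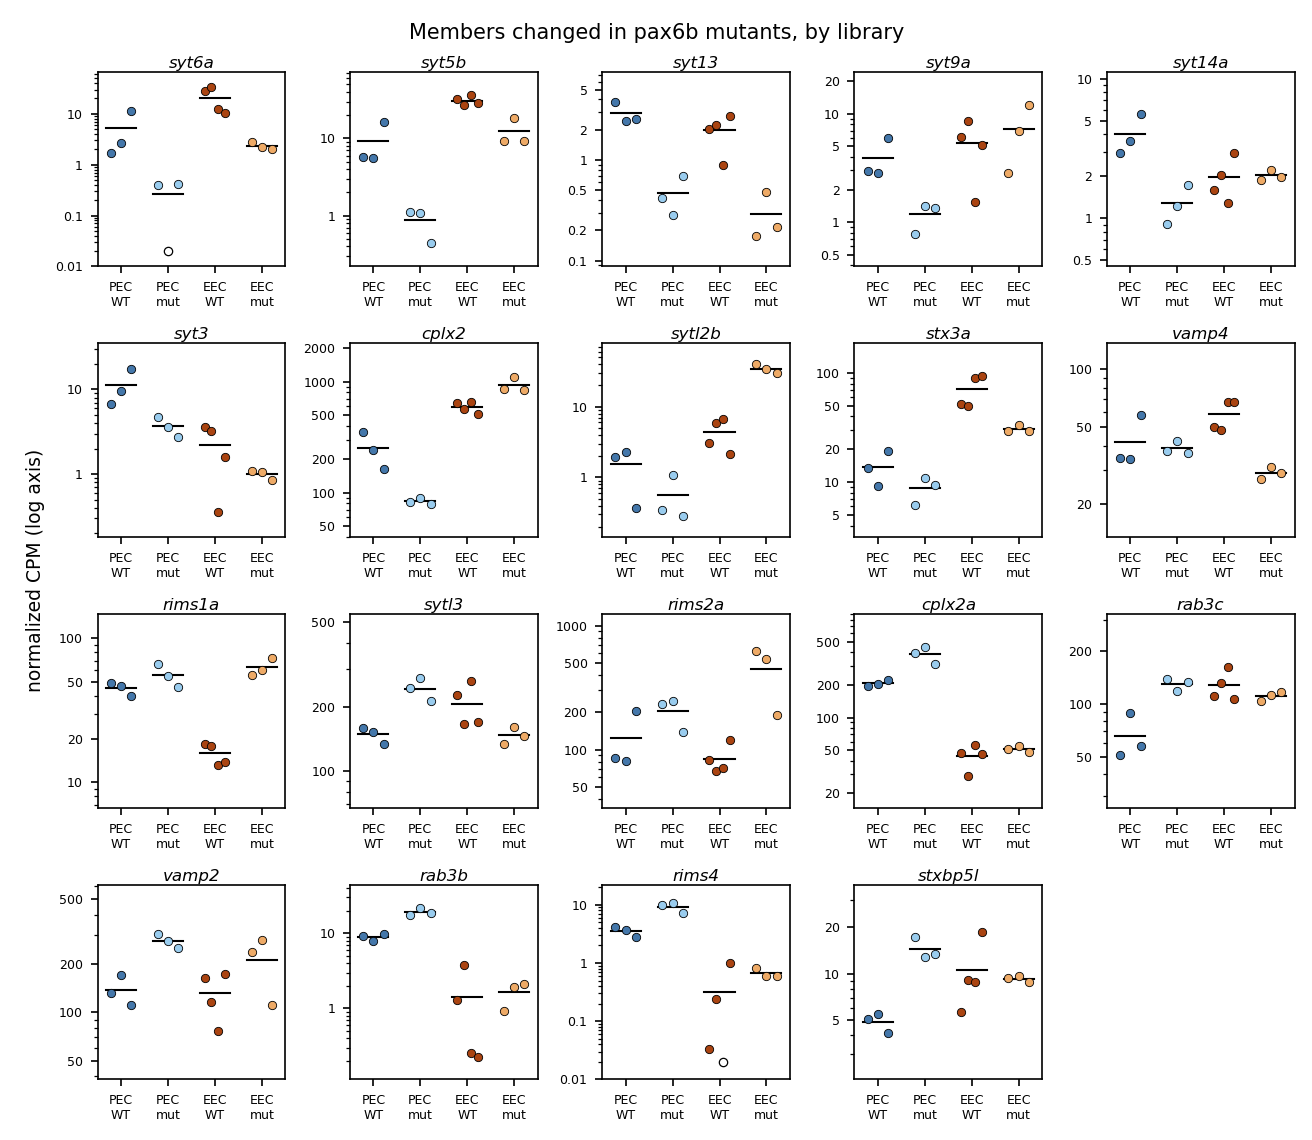
Normalized CPM (log axis) of 19 of the 20 members that passed the test in either mutant comparison, with 1 point per library, bars at the group mean over all libraries shown, and open points drawn at 0.02 for libraries without counts. Genes run from the largest fall to the largest rise in PECs, from syt6a (WT 1.73 to 11.2, mutants at most 0.41) to stxbp5l (WT at most 5.49, mutants at least 12.8).

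The PEC counts depended on single libraries. Without WT replicate 3, 13 members were higher and 12 lower, against 10.7% and 9.49% of all 19217 genes. These 13 included all 8 above and added rims2a, rab3db, rab3gap1, SYT11 and syt15, while the 12 kept 6 of the 7 above, lost syt9a and added vamp3, sytl2b, vamp1b, STX2, stx5a and stx16. Without that library the log2 fold change of syt6a was -2.98 and that of syt5b -2.68, both closer to 0 than with all libraries. Without WT replicate 1 or 2 the higher members numbered 2 and 3, without mutant replicate 1 or 2 they numbered 1 and 3, and without mutant replicate 2 the lower members numbered 4. The 5 genes cplx2, stxbp5l, syt5b, syt6a and syt13 passed in all 6 fits with 1 library left out. The hormone and other subtype genes changed in the same libraries: ins, sst2, sst1.2, gcgb and pdx1 summed to 64030 to 82355 normalized CPM in WT and 6361 to 9215 in mutant PECs, and the epsilon-cell genes ghrl, mlnl and mboat4 to 245 to 1205 and 2011 to 3089. The 7 neuron markers found summed to 413 to 515 in WT and 458 to 555 in mutant PECs, but did not move together. Of these, elavl4 alone passed, as lower, at 100 to 126 in WT and 31.5 to 42.7 in mutants (log2 fold change -1.65, adjusted p = 0.00146). The largest, ret, was at 166 to 173 and 231 to 279 and did not pass. In mutant replicate 2, 4 epidermal keratin genes reached 346 against 4.45 to 20.5 in the other PEC libraries. The part of cell composition in these differences was not tested.

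In Pax6b-/- EECs few members changed, and the rises were in Rim genes and a synaptotagmin-like gene. Of 102 members tested, 3 were higher and 4 lower than in WT EECs (2.94% and 3.92%), against 1.82% and 2.36% of all 18676 genes tested (4.18% in either direction). The median log2 fold change was 0.02 both for the members and for all genes.

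Rim proteins scaffold the release site and bind Rab3 and calcium channels. The Rim2 gene rims2a was at 81.6, 66.9, 70.4 and 119 normalized CPM in the 4 WT libraries and at 620, 538 and 189 in the mutants. All mutant libraries exceeded all WT libraries, with replicate 3 well below the other mutants, and the log2 fold change was 2.60 ± 0.37 (SE, n = 3 and 3, without WT replicate 4, adjusted p = 0.00331). The Rim1 gene rims1a went from 18.6, 17.9, 13.2 and 13.9 to 55.2, 59.8 and 73.5, again without overlap (1.90 ± 0.25, adjusted p = 0.00214). Slp2, encoded by sytl2b, is a Rab27 effector that docks granules. It was at 3.09, 5.81, 6.77 and 2.18 in WT and 39.6, 33.7 and 29.6 in mutant EECs (2.71 ± 0.35, adjusted p = 0.00165). These 3 genes passed whichever of the 6 libraries was left out. The other Rim2 entries RIMS2 and rims2b and the Rim1 entry rims1b passed in none of the 4 comparisons between groups.

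The falls were led by the same synaptotagmin genes as in PECs. In WT EECs syt6a was at 27.7, 32.9, 12.1 and 10.5 normalized CPM and in mutants at 2.81, 2.19 and 2.06, a log2 fold change of -3.38 ± 0.42 (adjusted p = 0.00153). For syt5b the WT values were 32, 26.9, 36 and 28.8 and the mutant values 9.37, 18.3 and 9.36 (-1.37 ± 0.32, adjusted p = 0.0424). Neither gene's groups overlapped. The entry SYT6 was at 24.5 to 66.8 in WT and 32.6 to 43.4 in mutant EECs and did not pass (-0.20 ± 0.33, adjusted p = 0.842). Syntaxin 3 is the syntaxin of the apical membrane in epithelial cells. Its gene stx3a was at 51.8, 49.7, 90.3 and 93.6 in WT and 29.3, 33.2 and 29.5 in mutants (-1.07 ± 0.26, adjusted p = 0.0544). The trans-Golgi SNARE gene vamp4 went from 49.9, 48.7, 67.5 and 67.9 to 27, 31.3 and 29 (-0.94 ± 0.23, adjusted p = 0.0541). The number of lower members was 1 without mutant replicate 1 or 3 and 2 without mutant replicate 2 or WT replicate 1, and syt6a was the 1 that passed in every such fit.

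Several members had large fitted values in EECs that did not pass. For syt13 the mutant EECs held 0.176, 0.476 and 0.215 normalized CPM against 2.05, 2.24, 0.896 and 2.72, a log2 fold change of -2.60 ± 0.85 (adjusted p = 0.154). The priming gene cadps2 was at 5.06, 8.02, 11.6 and 11.2 in WT and 0.195, 3.14 and 1.67 in mutants (-2.32 ± 0.76, adjusted p = 0.155). No library of either group overlapped the other for these genes, and the spread within groups was wide. The core genes snap25a, stxbp1a and syt1a had log2 fold changes of -0.22, 0.20 and -0.20 with SEs of 0.205 to 0.219, and none passed. Beside these values, the 5 gut hormone genes measured summed to 47941 to 73045 normalized CPM in WT and 14860 to 22653 in mutant EECs. Of these 5, pyyb (27369 to 33057 in WT, 2803 to 3602 in mutants) and adcyap1a passed as lower, and ccka (4046 to 7571 and 5155 to 7176), insl5a and penka did not pass. The genes ghrl, mlnl and mboat4 summed to 633 to 1133 in WT and 3560 to 6231 in mutant EECs. Most of this was mlnl (523 to 935 and 2961 to 5339), and mboat4 reached at most 0.0453 and 1.89. The study lists ghrl and mlnl among enteroendocrine hormones as well. The enterocyte genes summed to 1644 to 2345 in WT and 1422 to 2225 in mutant EECs. Mutant replicate 1 lay far above every other EEC library for fabp2, fabp6, apoa1a and apoa4b.1, and not for vil1, cdx1b and slc15a1b. For fabp2 the mutants were at 289, 41.3 and 32.7 normalized CPM (54.5 to 113 in WT), with replicate 1 the highest library. That library was also the highest EEC library for the muscle genes acta2, tagln and myh11a and for the neuron marker hand2. Its acta2 level was 18 normalized CPM, against 0.136 to 3.26 in the other EEC libraries. Of the neuron markers gap43 alone passed, as lower, at 41.3 to 175 in WT and 7.11 to 8.47 in mutants (adjusted p = 0.000316). The goblet-cell gene agr2 passed as lower as well, at 34.6 to 110 in WT and 21.2 to 28.6 in mutants (adjusted p = 0.0416). The part of these cell types in the differences was not tested.

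Several members had WT and Pax6b-/- PEC values without overlap and did not pass. Groups of 3 libraries can separate by chance, and the share of all genes that did was not counted. The calcium sensor gene syt10 was at 97.9, 52.8 and 99.1 normalized CPM in WT and 45.6, 50.9 and 39.7 in mutant PECs (log2 fold change -0.85 ± 0.29, adjusted p = 0.101), and in EECs its fitted change was -1.79 ± 0.60 (adjusted p = 0.166). Granuphilin, the Rab27 effector encoded by sytl4, docks insulin granules in mice. Its transcript was at 6.68, 6.09 and 13.8 in WT and 2.62, 1.51 and 5.46 in mutant PECs (-1.45 ± 0.51, adjusted p = 0.115). The Munc13 gene unc13c was at 8.01, 8.85 and 7.96 against 5.07, 4.70 and 3.44 (-0.89 ± 0.37, adjusted p = 0.183). In other genes 1 mutant library lay among the WT libraries. For vamp3, a vesicle SNARE gene used in most cells, WT PECs were at 120, 127 and 90.8 and mutants at 56.7, 50.6 and 96.1 (-0.72 ± 0.30, adjusted p = 0.184). For rab3aa the values were 283, 254 and 196 against 109, 149 and 232 (-0.56 ± 0.31, adjusted p = 0.329). Mutant replicate 3 was the library inside the WT range in both.

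Other members were detected in every library and passed in at most 1 of these comparisons. The lysosomal SNARE gene VAMP7 lay between 34.7 and 50.4 normalized CPM in all 13 libraries, the tomosyn gene stxbp5a between 62.7 and 116, the Munc18-2 gene stxbp2 between 77.1 and 188 and syt11a between 207 and 459. The Cadps gene cadpsb, which primes dense-core granules, ranged from 47.2 to 111, rims2b from 24.2 to 54.6 and vamp8, a SNARE gene of endosomes and exocrine granules, from 15.9 to 60. Members with low values included doc2b, a calcium sensor gene of slow release (1.43 to 5.27), sytl5 (0.512 to 6.48) and rab27b (0.107 to 3.80). Of these genes, syt11a passed in the comparison of mutant tissues and none passed in the comparisons of mutants with WT or of WT tissues.

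Of 20 members that passed in either mutant comparison, 2 passed in both, syt5b and syt6a, and both fell in each tissue. The share of all genes that passed in both was not counted here, so the 2 cannot be set against it. In EECs syt5b passed in 3 of the 6 fits with 1 library left out. A test of the difference between the mutant effects, EECs minus PECs, was fitted to 104 members, of which 3 were higher and 2 lower (2.88% and 1.92%). Over all 21067 genes 1.71% and 1.87% passed (3.58% in either direction). The effect on sytl2b differed most, at 4.11 ± 0.84 on the log2 scale (adjusted p = 0.0127, and 4.96 without PEC mutant replicate 2). In PECs sytl2b was at 1.93, 2.29 and 0.37 normalized CPM in WT and 0.343, 1.08 and 0.284 in mutants, overlapping ranges, whereas it rose in EECs. For cplx2 the difference was 2.15 ± 0.36 (adjusted p = 0.00287). That gene fell in PECs, and in EECs it was at 646, 565, 663 and 514 in WT and 856, 1112 and 837 in mutants, where its log2 fold change of 0.57 ± 0.20 did not pass (adjusted p = 0.183). For rims1a, at 48.8, 46.3 and 40.1 in WT and 65.9, 55.1 and 46.3 in mutant PECs, the difference was 1.58 ± 0.34 (adjusted p = 0.0164).

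For 2 members the effect was more negative in EECs than in PECs. The rab3c transcript, which rose in mutant PECs, was at 111, 132, 161 and 107 in WT and 104, 113 and 117 in mutant EECs, and the difference was -1.28 ± 0.34 (adjusted p = 0.0627). The gene listed as sytl3 was at 228, 165, 264 and 171 in WT and 133, 160 and 147 in mutant EECs (-1.32 ± 0.31, adjusted p = 0.0336). Leaving out 1 library changed the number of more negative effects to between 0 and 3. It was 0 without EEC mutant replicate 1 or PEC mutant replicate 2, and 1 without EEC mutant replicate 2 or 3, EEC WT replicate 3, PEC mutant replicate 1 or 3 or PEC WT replicate 1. The effects on cplx2, rims1a and sytl2b passed in all 12 such fits. The difference for rims2a, 1.87 ± 0.58, did not pass (adjusted p = 0.126).

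**Figure D2:**
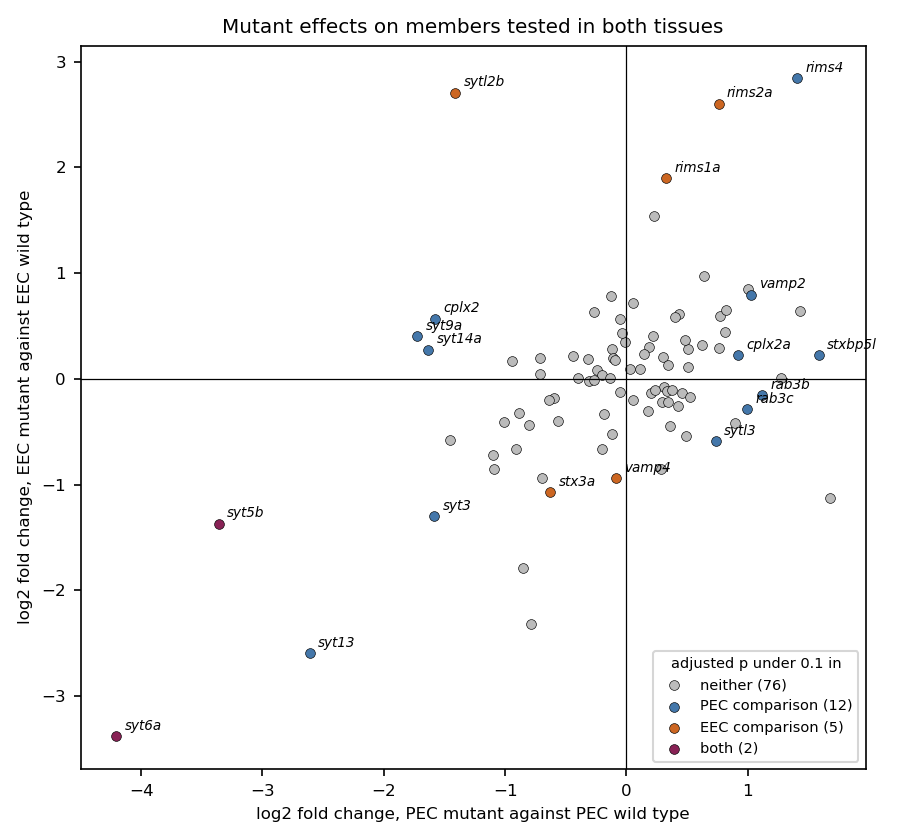
Log2 fold change of each member in Pax6b-/- against WT PECs (horizontal) and EECs (vertical), with 1 point for each of 95 of the 96 members tested in both, coloured by the comparison in which it passed and named where it passed in either. Both syt5b and syt6a lie far to the lower left (-3.36 and -1.37, -4.21 and -3.38), sytl2b at the upper left and rims2a with rims4 at the upper right.

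Between the WT tissues, complexin, Rab3 and Munc13 genes each passed in both directions. The plasma-membrane SNARE genes and the synaptotagmin-like genes that passed were all higher in EECs. Of 98 members tested in WT cells, 19 were higher in EECs and 21 higher in PECs (19.4% and 21.4%), against 18.4% and 15.8% of all 19302 genes tested (34.2% in either direction). The median log2 fold change, EECs against PECs, was -0.10 for the members and -0.02 for all genes. This comparison shares its WT libraries with the mutant comparisons.

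The members higher in PECs were led by vamp1a, a vesicle SNARE gene best known from nerve terminals. It was at 57.5, 56.5 and 44.6 normalized CPM in WT PECs and 1.89, 1.43, 0.537 and 0.363 in WT EECs, which is 39.7-fold lower in EECs (log2 fold change -5.31 ± 0.46, adjusted p = 5.51e-06). Its relative vamp2 had overlapping ranges, 131, 171 and 111 in PECs and 163, 116, 76.7 and 172 in EECs (-0.20 ± 0.31, adjusted p = 0.682). Among calcium sensors, syt10 was at 97.9, 52.8 and 99.1 in PECs and 2.20, 4.74, 5.95 and 1.72 in EECs (-4.28 ± 0.42, adjusted p = 1.45e-05). The high-affinity sensor gene syt7a, whose mouse counterpart takes part in insulin and glucagon release, was at 7.41, 4.94 and 7.42 against 0.268, 0.358, 0.0716 and 0.136 (-4.76 ± 0.69, adjusted p = 0.000268). Each of these genes separated the tissues in every library. A further synaptotagmin 7 entry, SYT7, was tested and passed in none of the 4 comparisons between groups.

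The SYT2 copy (ENSDARG00000025206) had a log2 fold change of -3.54 ± 1.02, syt15 of -2.69 ± 0.58 and rims4 of -5.27 ± 1.02, with rims4 at 0 to 0.997 normalized CPM in WT EECs. Without WT EEC replicate 2 the values of the SYT2 copy, rims4 and rab3b were -5.99, -7.15 and -3.45, each a larger difference. The rab3b difference did not pass without WT EEC replicate 1 (adjusted p = 0.106). The complexin gene cplx2a was at 194, 204 and 220 in PECs and 46.5, 28.9, 55.3 and 45.6 in EECs (-2.23 ± 0.28, adjusted p = 9.9e-05), while cplx2 was higher in EECs (1.31 ± 0.30, adjusted p = 0.0063). The cplx2a to cplx2 count ratio was 0.0511 to 0.0887 in WT EECs, below the 0.548 to 1.34 of WT PECs. Of the Rab3 genes, rab3b, rab3da and rab3aa were higher in PECs and rab3c and rab3db higher in EECs. The rab3db ranges overlapped (15.5 to 46.7 in PECs, 45.5 to 77.3 in EECs). That gene passed in 3 of the 6 fits with 1 library left out. A regulator of Rab3, rab3gap2, was higher in PECs (-2.55 ± 0.65, adjusted p = 0.0116, and -1.91 without WT PEC replicate 3). The priming genes unc13a, UNC13B and cadpsa and the scaffold gene rims1a were also higher in PECs, with log2 fold changes of -1.43 to -1.25. The fast sensor gene syt1a was at 956, 870 and 680 in PECs and 417, 333, 377 and 266 in EECs (-1.14 ± 0.25, adjusted p = 0.00522).

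The members higher in EECs were led by cplx4c, stx11a and unc13d. Complexin 4, in mammals a complexin of retinal synapses, had the largest fitted difference: cplx4c was at 0.455, 0.237 and 0.0711 normalized CPM in WT PECs and 31.5, 27.1, 24.8 and 68.8 in WT EECs (116-fold, log2 fold change 6.86 ± 0.62, adjusted p = 7.1e-06). Munc13-4, a Rab27 effector needed for granule release by cytotoxic lymphocytes in mammals, is encoded by unc13d, which was at 0.625, 0.237 and 0.569 in PECs and 8.40, 17.4, 10.9 and 14.7 in EECs (4.66 ± 0.57, adjusted p = 7.37e-05). Syntaxin 11 serves the same lymphocyte pathway. Its gene stx11a was at 0, 0.435 and 0.171 in PECs and 8.94, 5.48, 2.40 and 18.9 in EECs (4.87 ± 1.01, adjusted p = 0.00335). Leaving out 1 library gave 6.27 to 7.73 for cplx4c and 4.30 to 5.85 for stx11a, and both passed in each of these fits.

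The sytl4 transcript was at 6.68, 6.09 and 13.8 in PECs and 37.4, 45.5, 79.8 and 46.2 in EECs (2.62 ± 0.40, adjusted p = 0.000421). For stx3a the tissues also did not overlap, at 13.4, 9.21 and 19.1 against 51.8, 49.7, 90.3 and 93.6 (2.21 ± 0.35, adjusted p = 0.000528). The same held for syt4, a synaptotagmin gene of dense-core vesicles in mammals, at 24.8, 20.7 and 33.6 against 126, 49.7, 147 and 116 (2.04 ± 0.38, adjusted p = 0.00157). The 2 synaptotagmin genes that fell in both mutants were higher in EECs, syt6a by 2.24 ± 0.63 and syt5b by 1.80 ± 0.42 log2 units, and the widely used Snap25 relative snap23.1 by 1.86 ± 0.77 (adjusted p = 0.0952), with overlapping ranges of 0.514 to 1.18 and 0.788 to 4.66. Without WT PEC replicate 3 the differences of syt6a and syt5b were 3.45 and 2.47. The snap23.1 difference did not pass without WT EEC replicate 2 or 3 or WT PEC replicate 1 or 2, and was 1.25 without WT EEC replicate 3. Of the 40 members that passed between WT tissues, 29 did so in all 6 fits with 1 library left out.

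Values of other cell types also differed between the tissues. The 7 enterocyte genes, such as fabp2 and vil1, summed to 82.6 to 134 normalized CPM in WT PECs and 1644 to 2345 in WT EECs. The largest parts of this sum in EECs were vil1 (816 to 1593) and cdx1b (368 to 718), while fabp2 was at 54.5 to 113. The 4 epidermal genes summed to 8.02 to 20.5 in WT PECs and 358 to 590 in WT EECs. Most of the epidermal sum in EECs was krt4 (350 to 581), while cyt1 of the same list was lower in EECs (-3.48, adjusted p = 0.0107). Of the neuron list, elavl3 was at 76.2 to 150 in WT PECs and 0.725 to 6.49 in WT EECs, whereas the list as a whole summed to 413 to 515 and 386 to 674, with ret higher in EECs. Their part in the member differences was not tested.

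**Figure D3:**
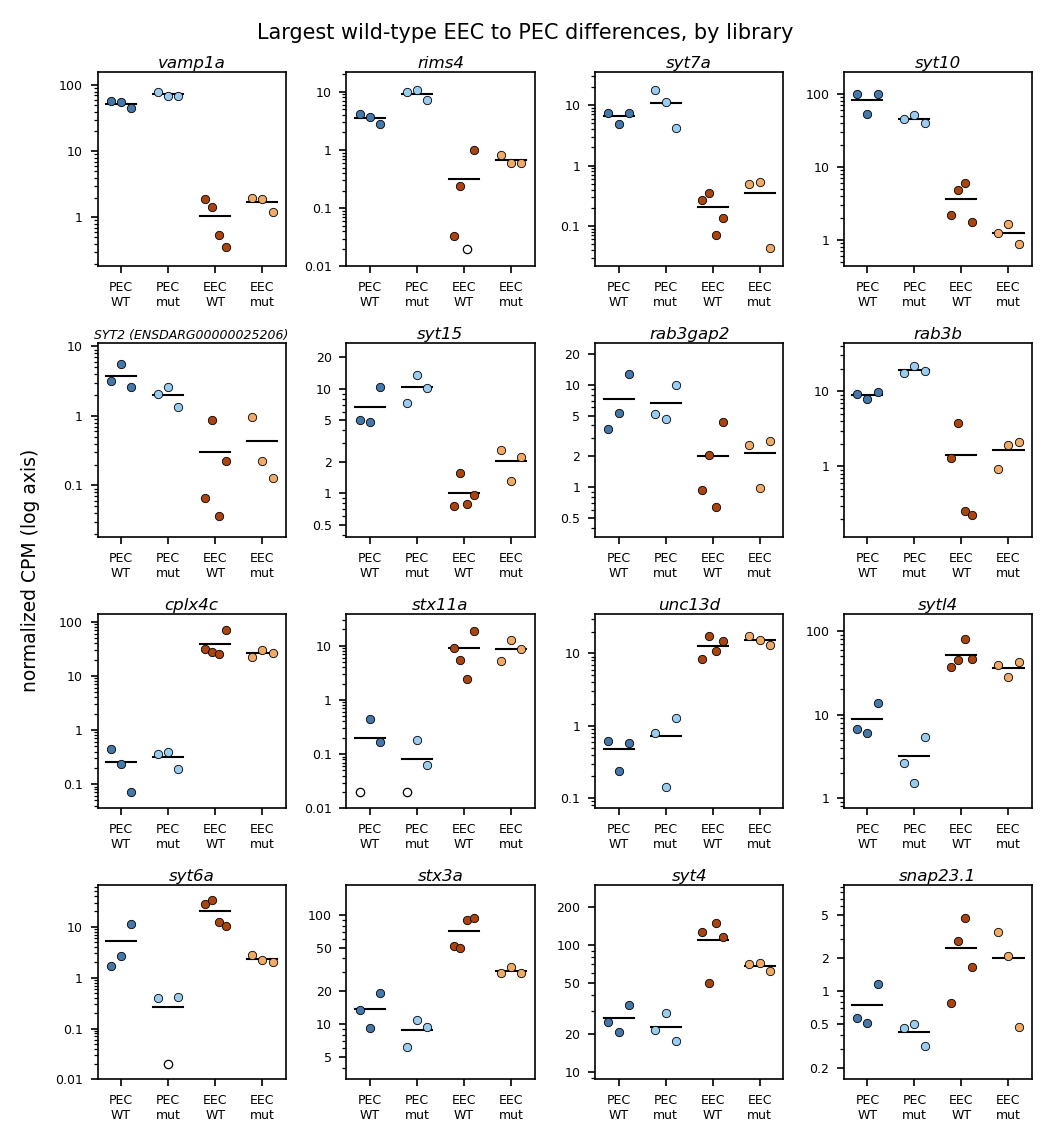
Normalized CPM (log axis) of the 8 members with the largest difference in each direction between WT EECs and WT PECs, with 1 point per library, bars at group means and open points drawn at 0.02 for libraries without counts. In the upper rows every WT PEC library lies above every WT EEC library except for rab3gap2 (3.72 to 12.7 against 0.645 to 4.35), and in the lower rows the mutant libraries of syt6a and stx3a lie below the WT libraries of the same tissue except for stx3a in PECs.

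Counts by role are given as a description, with no test between roles, and can be read against the 18.4% higher and 15.8% lower of all genes. The synaptotagmin-like and Doc2 genes had 3 of 6 tested higher in EECs (median log2 fold change 1.14) and the plasma-membrane SNAREs 3 of 9 (0.30). Their other members did not pass, and sytl2b passed in 2 of the 6 fits with 1 library left out. The priming and active zone genes had 2 of 15 higher and 5 lower (-0.66), and the calcium-binding synaptotagmins 3 of 13 higher and 5 lower (0.08). Most stxbp genes and SNAREs of internal membranes did not pass, 9 of 10 and 13 of 16. The core gene snap25a was at 136, 132 and 184 normalized CPM in WT PECs and 172, 155, 220 and 213 in WT EECs (0.29 ± 0.25, adjusted p = 0.439).

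**Figure D4:**
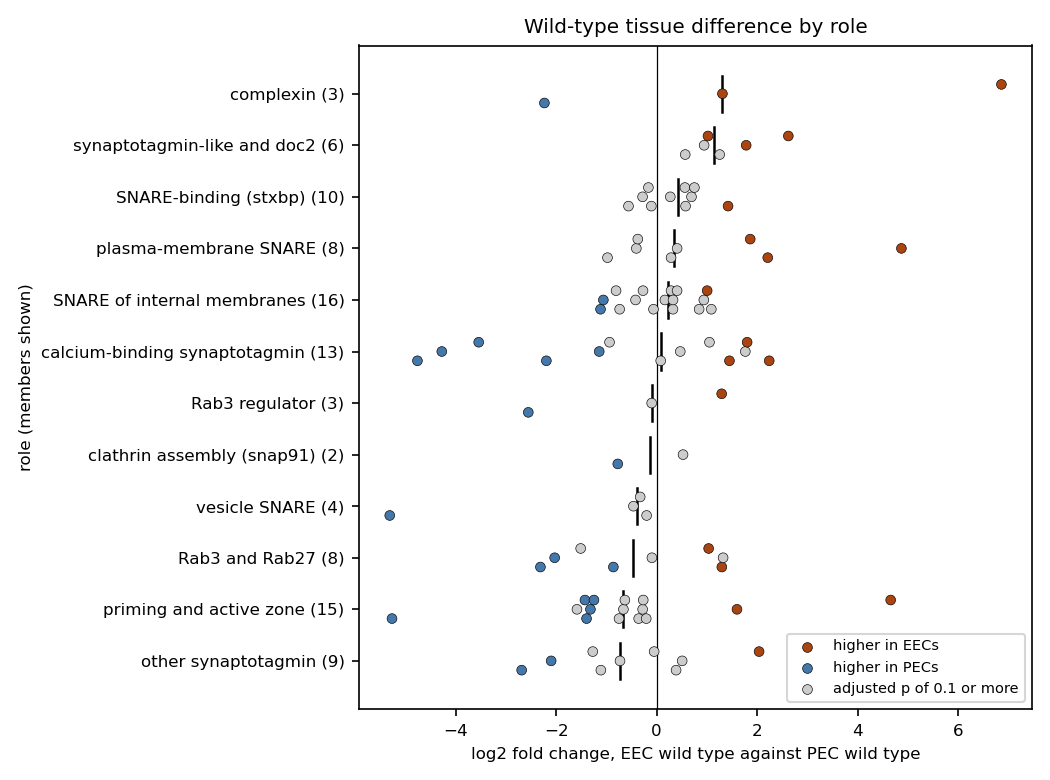
Log2 fold change of WT EECs against WT PECs for 97 of the 98 members tested, by role, with 1 point per member, a bar at the median of each role's members shown and their number in parentheses. The points furthest to the right are cplx4c (6.86), stx11a (4.87) and unc13d (4.66), and those furthest to the left vamp1a (-5.31) and rims4 (-5.27).

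In Pax6b-/- cells 97 members were tested between the tissues, and 21 were higher in EECs and 25 higher in PECs (21.6% and 25.8%), against 21% and 19.3% of all 18853 genes (40.3% in either direction). The 33 members that passed in both tissue comparisons had the same direction in each, as did 98.4% of all 4603 genes that passed in both. There were 7 that passed in WT alone, among them rims1a, rab3c and cadps2, and 13 in mutants alone, among them rims2a, syt9a and STX7. Among all genes 6602 passed in WT, 7599 in mutants and 4603 in both, so calls in 1 alone were common there too. Passing in one and not the other is not a test of the difference. That difference is the same contrast as the difference between the mutant effects, in which rims1a and rab3c passed and cadps2, rims2a, syt9a and STX7 did not. The rims2a transcript was at 235, 246 and 139 normalized CPM in mutant PECs and 620, 538 and 189 in mutant EECs (1.06 ± 0.39, adjusted p = 0.0593), against -0.75 ± 0.34 in WT cells (adjusted p = 0.13). For syt9a the mutant values were 0.784, 1.40 and 1.36 in PECs and 2.85, 6.89 and 12.1 in EECs (2.57 ± 0.57, adjusted p = 0.00471), and for STX7, an endosomal syntaxin gene, 1.94, 0.826 and 0.852 against 6.07, 7.36 and 3.69 (2.17 ± 0.52, adjusted p = 0.00729). The tissue difference of cplx2 was 3.43 ± 0.22 in mutants (adjusted p = 1.2e-06), that of sytl2b 5.89 ± 0.51 (adjusted p = 7.88e-06, and 6.69 without PEC mutant replicate 2), that of rab3b -3.62 ± 0.40 (adjusted p = 4.69e-05) and that of SYT11 -2.29 ± 0.46 (adjusted p = 0.00262). With the replicate number as a block, 4 further members were lower in mutant EECs: SNAP25 (adjusted p = 0.0166 with the block, 0.104 without), cadpsb (0.0582 and 0.101), vamp2 (0.0769 and 0.286) and vamp4 (0.0842 and 0.127). Libraries of equal number were matched for replicate 3 alone, and these 4 are not among the 25 above.

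Of 77 other genes that work with this machinery, 66 were tested in PECs and 65 in EECs. In Pax6b-/- PECs 7 were higher and 4 lower (10.6% and 6.06%, against 5.43% and 5.74% of all genes), so the share of lower genes was near that of all genes. The active-zone scaffold gene pclob (Piccolo) was at 219, 206 and 149 normalized CPM in WT and 73.8, 71.6 and 56.5 in mutant PECs (-1.49, adjusted p = 0.00391), without overlap. The vesicle-membrane gene sypb (a synaptophysin) went from 8.98, 8.73 and 9.20 to 2.33, 3.45 and 2.81 (-1.63, adjusted p = 0.0171). The Rim-binding gene rimbp2 went from 8.58, 12.4 and 10.1 to 57.9, 49.0 and 8.96, with mutant replicate 3 inside the WT range (1.93, adjusted p = 0.0386). Other entries of these names did not pass in PECs. The synaptophysin gene sypa was at 391 to 620 in WT and 463 to 641 in mutants (0.16, adjusted p = 0.798). For pcloa the value was 0.39 (adjusted p = 0.47) and for RIMBP2 0.43 (adjusted p = 0.48). In EECs nrxn1b, a neurexin gene, was the 1 of 65 that passed (1.54%, against 4.18% of all genes), from 24.3, 23.8, 29.7 and 38.3 to 10.9, 14.3 and 6.70 (-1.30, adjusted p = 0.0563), and it also fell in PECs (-1.81, adjusted p = 0.015). The mutant effects differed between tissues for pclob (2.30, adjusted p = 0.00252), svopl (-2.19, adjusted p = 0.0118) and myripb, a Rab27 partner (-1.45, adjusted p = 0.0812). Between WT tissues 15 of 66 were higher in EECs and 16 higher in PECs (22.7% and 24.2%, against 18.4% and 15.8% of all genes).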

How the data were processed

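The deposited values are raw counts per gene, 1 file per library. The authors made Smart-seq2 libraries (13 PCR cycles, paired reads of 100 bases), aligned with STAR 2.5.4b to GRCz11 and counted genes of Ensembl 92. Which strand column was kept is not given in the sources used here, so genes overlapping on either strand, and near-identical paralogs, may share reads. Each file holds 31901 gene IDs. Symbols came from the study's tables (5831 IDs) or a table of gene names (23437), and 2633 IDs had none. By each of these sources 41 and 76 members were named. A unique symbol that the table of gene names gave in capitals was written in lower case where RefSeq holds that zebrafish symbol. This was not done where another ID already had the lower-case symbol. Chromosome placement was read by symbol from a RefSeq annotation (GRCz12tu) and was found for 90 of the 117 members.

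Groups were taken from the sample labels. Counts were scaled by TMM and tested with edgeR 4.0.16 (R 4.3.3; filterByExpr, robust quasi-likelihood F test, two-sided), with Benjamini-Hochberg adjustment over all genes tested and calls at adjusted p under 0.1; SE is the log2 fold change divided by the root of F. Main fits used 3 libraries per group and left out WT EEC replicate 4, because the study compares triplicates; levels show it. Libraries pool many animals, and the authors describe the preparations as independent. Whether preparations shared parents or days is not given in the sources used here. The tests set each group difference against the spread between these libraries. Statements that groups did not overlap describe these libraries only, as the share of all genes without overlap was not counted. No 2 libraries of a group agreed within sampling noise. The procedure was tested on simulated data.

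Replicate numbers were checked as pairs. Correlations of deviations between libraries of the same number were -0.221 to 0.1 in the first 3 comparisons and 0.147, 0.194 and 0.387 between mutant EECs and mutant PECs. There, mutant EEC replicate 2 with PEC replicate 1 gave 0.155, and EEC replicate 1 with PEC replicate 2 gave 0.085. Only replicate 3 was thus matched by its number, from the data and not from the labels. Alternatives were RLE scaling, no filter, a filter at 10 CPM, DESeq2 1.42.0, adjusted p under 0.05, the replicate block, all 12 libraries in one fit, all 4 WT EEC libraries, members on the chromosome of pax6b left out, and each library left out. Members named were those of a list by role, the 8 largest called changes in each direction of each comparison, and members called in both mutant comparisons or in the difference of effects. Values of some members are not reported here. Members and lists were chosen with earlier results of these data known. Markers phox2bb, stmn2a, muc2.1, desma, hbbe1.1 and crygn2 were not matched.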

Additional observations from a re-analysis of the deposited data

Results flagged for a closer look

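In the 4 WT EEC libraries, 1 library lay far from the rest for 5 members, by the gap to the nearest library as a share of the whole range. Replicate 4 was high for cplx4c (gap 0.849 of the range; 68.8 against 24.8 to 31.5 normalized CPM) and for snap91b, a clathrin assembly gene (0.874; 75.8 against 45.3 to 49.2). Replicate 3 was high for cadpsb (0.873; 89.5 against 47.2 to 52.6) and syt12 (0.869; 3.80 against 0.0453 to 0.537), and replicate 1 for stxbp6 (0.848; 32.3 against 9.97 to 13.4). Chance flags about 1 in 20 groups, and 86 members were looked at.

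The mutant effect differed between the tissues, by the test of the difference itself (edgeR, EECs minus PECs, log2 scale), for 5 members: sytl2b (4.11), cplx2 (2.15), rims1a (1.58), rab3c (-1.28) and sytl3 (-1.32). The first 3 passed whichever of the 12 libraries was left out, sytl3 in 10 of the 12 fits and rab3c in 4. With all 4 WT EEC libraries 1 of the negative differences passed.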

How the results depend on the processing

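Every one of the 113 member calls kept its sign under each alternative that tested it, and none reversed. In PECs the count of higher members moved from 8 to 3 with the replicate block, and that of lower members from 7 to 2 with the 10 CPM filter, which tests fewer genes. In EECs the lower members moved from 4 to 8 with DESeq2 and to 2 at adjusted p under 0.05. For the difference of the mutant effects DESeq2 gave 6 more positive and 4 more negative members in place of 3 and 2, and the negative count was 1 with all 4 WT EEC libraries and 1 at adjusted p under 0.05. Apart from the fewer genes or stricter limit named, the cause was not tested. Leaving out 1 library gave 1 to 13 higher and 4 to 12 lower members in PECs, 1 to 6 lower in EECs, and 0 to 3 negative differences. In the mutant tissue comparison, where replicate 3 alone was matched by number, the replicate block gave 21 higher and 29 lower members (main 21 and 25), and no called member was lost. Elsewhere the numbers did not pair the libraries, and the block gave 5 lower in PECs, 3 higher and 3 lower in EECs, and 17 higher and 21 lower between WT tissues. RLE scaling moved the median of all genes by -0.0404 to 0.0022 log2 units. Leaving out syt4 and syt13, the members placed on the chromosome of pax6b, took 1 from the lower members in PECs. Only 90 of the 117 members could be placed, so others on that chromosome may have been missed. Genes near 0.1 normalized CPM rest on a few counts, and differences there were not detectable at this depth.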

Other observations

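The study's lists of pancreatic subtype markers hold 4 members, whose levels are given here without a test of the lists. On the delta-cell list, rab3db was at 16.9, 15.5 and 46.7 normalized CPM in WT and 45.2, 45.4 and 45.8 in Pax6b-/- PECs, so that WT replicate 3 alone reached the mutant level. On the same list stxbp6, the amisyn gene, was at 17.6, 18.7 and 34.5 in WT and 22.6, 20.1 and 29.6 in mutant PECs. The epsilon-cell list holds snap25a, which did not pass in either mutant comparison, and the pan-endocrine list rims2a, which was at 86.2, 81.1 and 206 in WT and 235, 246 and 139 in mutant PECs.

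Some members were close to the detection limit in most groups. In WT PECs vamp1b was at 1.51, 0.869 and 0.171 normalized CPM, and in the other 3 groups at 0.0391 to 0.215. The plasma-membrane syntaxin gene stx1a was at 0 to 0.0427 in all PEC libraries and 0 to 0.508 in EEC libraries.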
